A study of Homo sapiens with 4 samples.

Results

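The genes described here encode the glucose transporters, the enzymes and regulators of glycolysis, the enzymes that decide the fate of pyruvate, the oxygen sensors and a set of genes induced by low oxygen. They were chosen by name, with earlier results of these data known, and not by their values. Of 38 genes listed, 36 had at least 1 probe set with that gene symbol alone, and 33 were bright enough to be counted as measured, of 19775 genes and 10288 measured genes on the arrays. SLC16A1 and SLC16A3 were not analysed here, and PFKFB2, ENO2 and EGLN3 had probe sets below the brightness limit. Each gene is represented by its brightest probe set.

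Glycolysis converts glucose to pyruvate in the cytosol, and most of its steps can be carried by more than one isoform encoded by separate genes. Hypoxia-inducible factors are transcription factors whose alpha subunits are hydroxylated by prolyl hydroxylases (the EGLN enzymes) when oxygen is present and then degraded through the VHL ubiquitin ligase. When oxygen is low they accumulate and raise the transcription of many glycolytic genes, of VEGFA and of mitophagy genes such as BNIP3. Activated macrophages rely strongly on glycolysis.

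U937 is an established human line with monocyte features, grown from a lymphoma of histiocytic type. One group carried the lentiviral vector pSICO-R with a short hairpin against PIR, which encodes pirin, a nuclear iron-binding protein. The control group carried the vector without a hairpin. Both were grown in the same medium with serum and no treatment is given in the labels. RNA from 3 extractions was mixed into 1 pool per condition and each pool was hybridised to 2 arrays (Affymetrix HG-U133 Plus 2.0), so 4 arrays hold 2 samples. The SDs below (n = 2 arrays) come from repeat hybridisations of 1 RNA and do not contain the spread between cultures, and no p-value can be given for the condition. A single hairpin was used, so its effects and those of pirin loss cannot be told apart.

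PIR had signals of 83.4 and 91.5 on the knock-down arrays against 1812.9 and 1881.7 with the empty vector (17.7-fold lower), in the direction of the labels. The design text says that no pirin protein was left on a Western blot. Of 10 myelomonocytic markers with a probe set, 8 were measured, and MPO and FCGR1A were not. The summed signal of the 10 was 77902 to 84457 on the knock-down arrays and 66628 to 68760 on the empty-vector arrays. LYZ and ELANE, with log2 differences of 0.01 and 0.41, were the brightest of them. Of the 8 measured markers, 7 had higher signals in the knock-down pool (6 after quantile normalization), with a median log2 difference of 0.39. Over all 10288 measured genes, 5680 had higher and 4608 lower signals. CD4 and PTPRC differed by 0.84 and 0.69 and SPI1 by -0.13. The arrays of the pools overlapped for SPI1 and LYZ. None of 5 T cell markers was measured, and 2 of 4 B cell, 1 of 3 erythroid and 1 of 6 epithelial and fibroblast markers were. All 12 mitotic genes had lower signals in the knock-down pool (median log2 difference -0.68), with MKI67 2.42-fold and PLK1 2.32-fold lower. The summed signal of the 12 was 43547 to 45553 against 73608 to 73706. Whether the differences of these marker lists have a part in the results below was not tested.

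Differences are given as knock-down minus empty vector on the scale log2(signal + 18), which understates the change of dim genes, and folds are on the same scale. A gene was counted as past the 2-fold limit if its pool means lay 1 or more apart on that scale, each of the 4 possible pairs of 1 knock-down and 1 empty-vector array differed by 0.5 or more the same way, and the brighter pool had both arrays at or above the 60th percentile of signal (the brightness limit, 116.4 to 125.5). The 1.5-fold limit was applied in the same way, with a difference of at least 0.585 and array-by-array differences of at least 0.29.

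PFKFB4, ALDOC, HK3, BNIP3L and SLC2A3 were higher in the knock-down pool past the 1.5-fold limit, by 1.54-fold (SLC2A3) to 2.84-fold (PFKFB4). EGLN1 was lower past the same limit, by 1.71-fold. HK3 was measured through its knock-down pool only, and so was PFKM, which was past no limit. Of the 33 measured members, 2 were past the 2-fold limit as higher (6.06%), against 2.44% of all measured genes, and none as lower, against 1.10%. At the 1.5-fold limit 5 were higher (15.2%), against 8.51% of all measured genes, and 1 was lower (3.03%), against 4.95%. The median log2 difference was 0.12 over the members and 0.05 over all measured genes. The middle range (25th to 75th percentile) ran from -0.07 to 0.28 over the members and from -0.19 to 0.29 over all measured genes. The arrays of the pools did not overlap in 20 members with higher signals (60.6%) and in 11 with lower signals (33.3%), against 40.9% and 31.2% of all measured genes, and they overlapped for PFKM and ADM. Across all measured genes, 5680 of 10288 had higher signals, and 63.2% of those past the 1.5-fold limit were higher. With the arrays scaled to a common median, the median of all measured genes was 0.17 and this share was 81.6%.

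**Figure D1:**
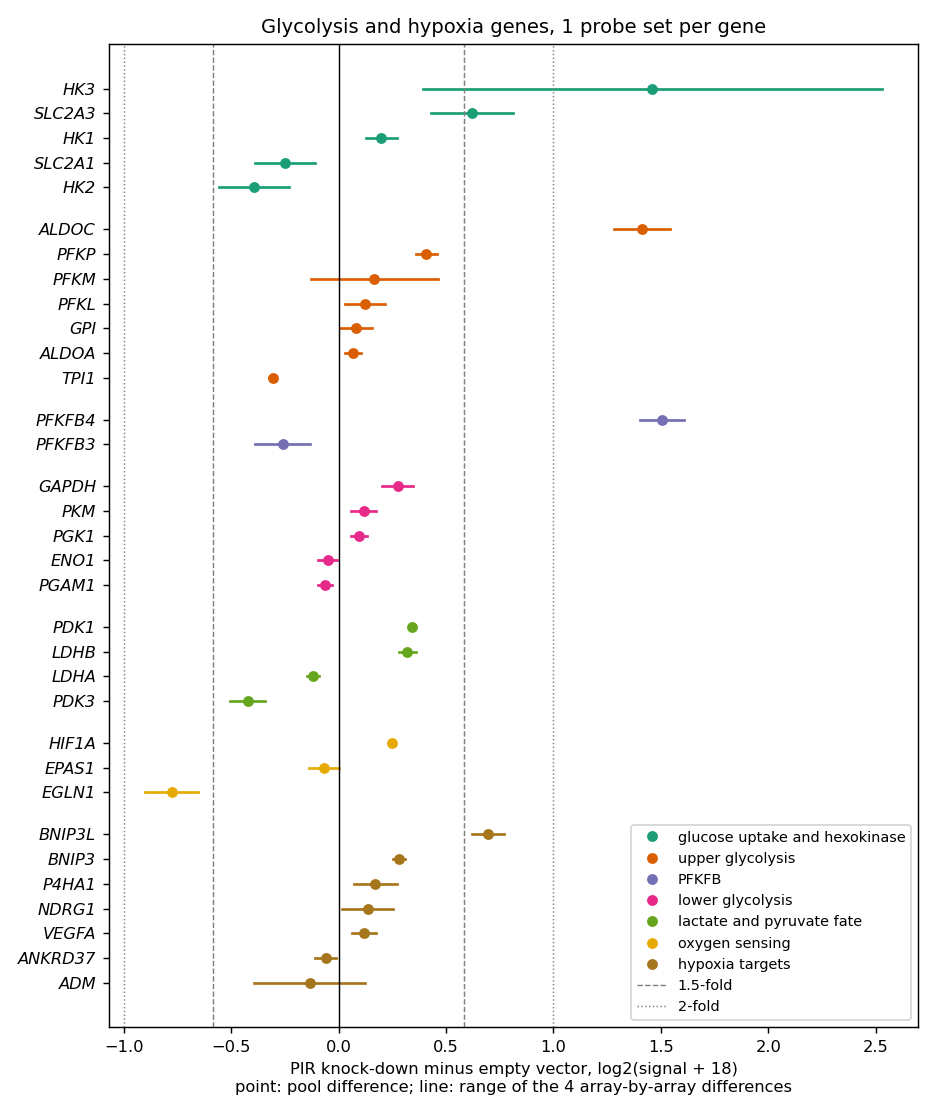
Difference between the PIR knock-down and the empty-vector pool for the 33 measured genes (x axis, log2(signal + 18); y axis, genes grouped by role), with the pool difference as a point and the range of the 4 array-by-array differences as a line. PFKFB4, ALDOC and HK3 lie near 1.5, EGLN1 lies at -0.78, most other genes lie within 0.5 of 0, and the line of HK3 is the longest.

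Promoters are shown for the members past the 1.5-fold limit, because the differences of these genes were past a limit and many genes of the set are known targets of a factor with a short core motif. The table of RefSeq promoters (GRCh38.p14) matched 32 of the 38 genes, and 21 of these have 1 start in it. SLC2A3 and BNIP3L were not matched. The motif searched was ACGTG or GCGTG, the core of the hypoxia response element, on both strands in the 250 bases before each start. A match on both strands at CACGTG overlaps and was counted for each strand. The capitals mark the matches, and each sequence is written 5′ to 3′ on the strand of the gene and ends at the last base before the start. ALDOC lies at chr17:28576896-28577145, PFKFB4 at chr3:48556804-48557053, HK3 at chr5:176899347-176899596 and EGLN1 at chr1:231422288-231422537, all on the minus strand.
ALDOC: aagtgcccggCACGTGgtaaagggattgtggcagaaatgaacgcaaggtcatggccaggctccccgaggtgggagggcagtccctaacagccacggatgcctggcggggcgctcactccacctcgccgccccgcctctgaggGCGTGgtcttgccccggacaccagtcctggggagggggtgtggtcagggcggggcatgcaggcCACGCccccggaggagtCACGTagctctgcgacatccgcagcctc
PFKFB4: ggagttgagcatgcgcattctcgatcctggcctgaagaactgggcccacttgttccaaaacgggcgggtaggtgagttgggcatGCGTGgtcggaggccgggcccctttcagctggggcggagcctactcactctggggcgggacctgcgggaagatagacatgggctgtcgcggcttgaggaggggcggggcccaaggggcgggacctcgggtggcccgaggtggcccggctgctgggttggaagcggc
HK3: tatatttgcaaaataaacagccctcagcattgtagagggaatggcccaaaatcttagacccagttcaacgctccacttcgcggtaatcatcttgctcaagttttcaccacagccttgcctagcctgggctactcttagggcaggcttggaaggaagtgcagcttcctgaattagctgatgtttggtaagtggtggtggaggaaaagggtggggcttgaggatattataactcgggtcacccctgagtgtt
EGLN1: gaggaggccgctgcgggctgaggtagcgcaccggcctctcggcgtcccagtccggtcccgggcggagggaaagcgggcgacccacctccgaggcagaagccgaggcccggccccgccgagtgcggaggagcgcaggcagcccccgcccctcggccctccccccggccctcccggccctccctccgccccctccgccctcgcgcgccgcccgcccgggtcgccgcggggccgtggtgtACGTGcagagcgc

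ALDOC had 5 matches, PFKFB4 and EGLN1 had 1 each and HK3 had none. Of these, ALDOC, PFKFB4 and HK3 were higher in the knock-down pool and EGLN1 was lower. ACGTG was found in 18.5% and either form in 43.2% of all 35116 promoters of this length. Among the 59 starts of the members the shares were 37.3% (22 starts) and 57.6% (34 starts); several starts can belong to 1 gene. BNIP3 and HK2, whose brightest probe sets differed by 0.28 and -0.39, had starts with 6 matches. A match describes letters and is not a binding site, and binding was not measured.

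Glucose enters the cell through transporters of the SLC2A family and is trapped by hexokinases. SLC2A3, the high-affinity transporter GLUT3, gave 910.5 and 1050.9 in the knock-down pool against 591.3 and 670.3 in the control pool. It was 1.54-fold higher (0.62), and the other 2 probe sets showed 2.12-fold and 1.92-fold. The brightest has an identifier that marks probes shared with other genes (_x_at) and the other 2 have one that marks several transcripts (_s_at). SLC2A14 is a close copy of SLC2A3, and signal from it was not separated here. SLC2A1, the basal transporter GLUT1, had 577.9 and 482.6 against 626.0 and 638.2, a difference of -0.25. Both knock-down arrays were above both empty-vector arrays for SLC2A3 and below them for SLC2A1. The difference of SLC2A3 exceeded that of SLC2A1 by 0.87, and by 0.57 to 1.17 over array pairs. SLC2A3 was not past the 1.5-fold limit with a 4 times larger pseudocount (0.58), after quantile normalization (0.57), or without knock-down replica 2 (0.52) or empty-vector replica 1 (0.53).

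Of the 3 hexokinases, HK1 and HK3 had higher signals in the knock-down pool, and the direction of HK2 depends on the probe set. HK1, the housekeeping form bound to mitochondria, had 2772.8 and 2586.7 against 2369.0 and 2296.7, a difference of 0.20. HK2, the inducible form that is also a hypoxia target, had 1975.4 and 1991.3 against 2339.2 and 2914.1, a difference of -0.39. Its knock-down arrays lay below both empty-vector arrays, but its 2 other measured probe sets were dimmer and higher, by 0.59 and 0.90, and the mean over all its probe sets was 0.37. HK3, a form of white blood cells, had 189.5 and 241.0 against 26.9 and 140.2. Its pool difference was 1.46 (2.75-fold), with array-by-array differences from 0.39 to 2.53, and it was 0.55 without empty-vector replica 1 and 2.37 without empty-vector replica 2. HK3 was therefore past the 1.5-fold limit but not the 2-fold limit, and its size rests on 1 array.

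The upper part of glycolysis splits the hexose into triose phosphates. ALDOC, the brain-type aldolase, gave 1182.2 and 1039.9 in the knock-down pool against 417.6 and 394.5 in the control pool, or 1111 ± 101 against 406.1 ± 16.3 (SD, n = 2 arrays). It was 2.66-fold higher, with array-by-array differences from 1.28 to 1.54, and has 1 probe set. ALDOA, the main aldolase of most tissues, had 23905 and 24235 against 22527 and 23428. Its difference was 0.07, with the opposite sign after quantile normalization and over the mean of all its probe sets. The difference of ALDOC exceeded that of ALDOA by 1.34, and by 1.17 to 1.51 over array pairs.

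Phosphofructokinase, which commits glucose to glycolysis, is encoded by PFKL, PFKM and PFKP. PFKP, the platelet form, had 6085.4 and 6166.5 against 4742.7 and 4489.7 and was 1.33-fold higher. A dim second probe set turned the sign when both were averaged (-0.29). PFKL, the liver form, had 1788.7 and 1614.2 against 1581.3 and 1535.8, a difference of 0.12. PFKM, the muscle form, had 117.0 and 128.0 against 88.0 and 129.8, near the brightness limit. Its pools overlapped, and the difference of 0.17 was -0.07 without empty-vector replica 1. None of the 3 was past the 1.5-fold limit. The difference of PFKP exceeded that of PFKL on all array pairs, by 0.18 to 0.39. GPI, the isomerase before this step, differed by 0.08.

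TPI1, which interconverts the triose phosphates, had 12950 and 12747 against 15955 and 15838, a difference of -0.31. All 3 of its measured probe sets were lower, from -0.74 to -0.12. It was the only measured member of the upper part below 0 on its brightest probe set.

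The PFKFB enzymes make and remove fructose 2,6-bisphosphate, the strongest activator of phosphofructokinase. PFKFB4 gave 708.7 and 713.3 in the knock-down pool against 221.6 and 256.6 in the control pool, or 711 ± 3.25 against 239.1 ± 24.7 (SD, n = 2 arrays). It was 2.84-fold higher, and its second probe set was 3.26-fold higher, from an empty-vector signal of 36.70. PFKFB3, the isoform with the highest kinase activity and also a hypoxia target, had 1087.8 and 1201.7 against 1429.7 and 1318.1, a difference of -0.26. The difference of PFKFB4 exceeded that of PFKFB3 by 1.54 to 1.99 over array pairs. PFKFB2, the heart-type isoform, stayed below the brightness limit on all arrays, with signals from 35.7 to 62.3.

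**Figure D2:**
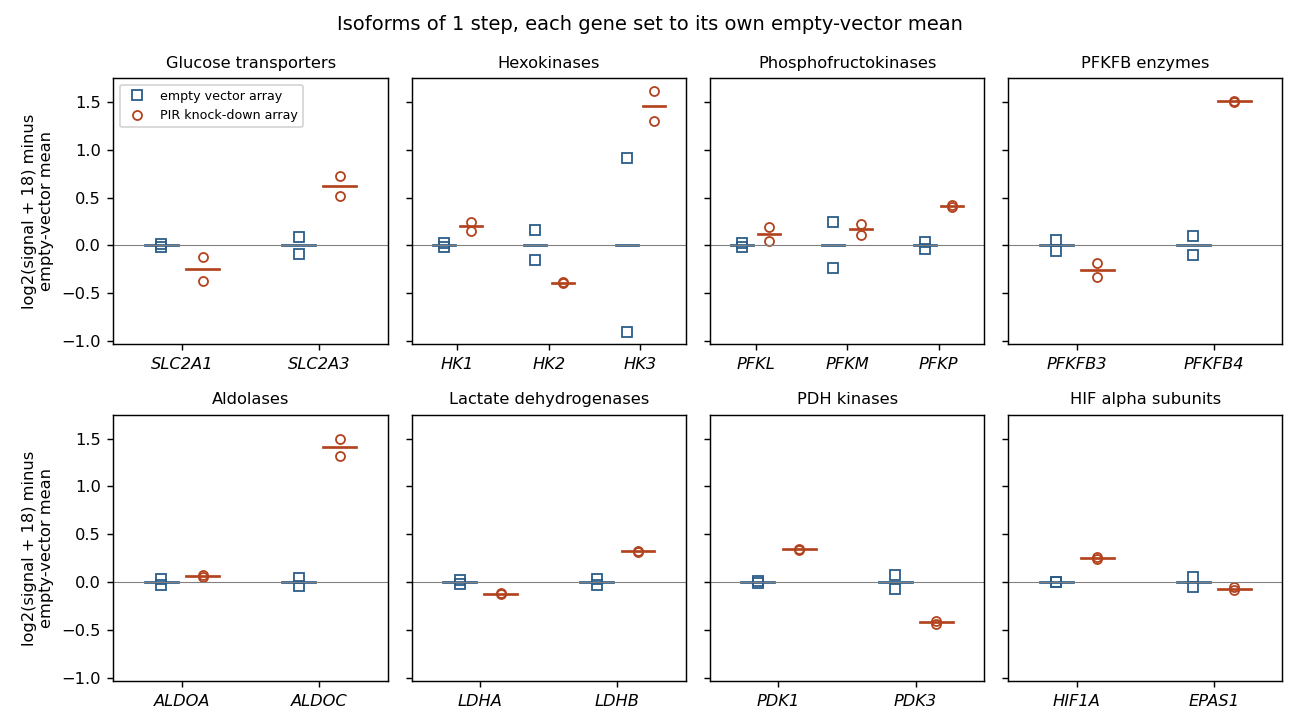
Signal on each array for isoforms of 1 step and for the HIF alpha subunits (y axis, log2(signal + 18) minus the mean of the empty-vector arrays of that gene; x axis, genes), with squares for empty-vector arrays, circles for knock-down arrays and bars for pool means. In the pairs SLC2A1 and SLC2A3, PFKFB3 and PFKFB4, LDHA and LDHB, and PDK1 and PDK3 the knock-down arrays lie on opposite sides of 0 (LDHA is at 0.01 with the arrays scaled to a common median, and PDK3 at 0.06 over its 5 probe sets), and the empty-vector arrays of HK3 lie far apart.

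The lower part of glycolysis yields ATP and pyruvate, and 5 of its 6 genes were measured. Of these, 3 had higher signals, 2 after quantile normalization and all 5 with the arrays scaled to a common median. GAPDH, the triose phosphate dehydrogenase often used as a reference gene, had 31577 and 34826 against 27414 and 27388. It was 1.21-fold higher, its other 2 probe sets differed by 0.22 each, and its 3 control probe sets along the transcript by 0.16 to 0.19. The 3 control probe sets of ACTB, a gene outside this set, were higher by 0.27 to 0.28. After quantile normalization the difference of GAPDH was 0.13. The ratio of 3′ to 5′ control signal of GAPDH was 0.96 to 1.02 over the 4 arrays, and that of ACTB was 1.17 to 1.18, and on both genes the ranges of the pools overlapped. PGK1, phosphoglycerate kinase, differed by 0.09, but 3 of its 6 measured probe sets were higher and 3 lower, and the sign turned after quantile normalization and over the mean of its probe sets. PKM, pyruvate kinase, had 17756 and 17007 against 15718 and 16319, a difference of 0.12, with a dimmer probe set at -0.31 and a mean over both of -0.09. PGAM1, phosphoglycerate mutase, and ENO1, enolase 1, differed by -0.07 and -0.05, and both were above 0 with the arrays scaled to a common median. Of the 4 measured probe sets of ENO1, 1 was higher and 3 were lower. The higher one, with signals of 22668 against 20712, differed by 0.13. A dim probe set of ENO1, with 52.5 and 141.2 on the knock-down arrays, was at -0.95 and past the 1.5-fold limit as lower. ENO2, the neuronal enolase, had 28.5 and 29.1 against 9.9 and 13.8, below the brightness limit on all arrays.

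Small differences went with high signals. Of the members, 11 had a mean signal of at least 10000, none of them past the 1.5-fold limit and with differences from -0.31 to 0.34. Of all 531 measured genes that bright, 3.39% were past the 1.5-fold limit in either direction, against 14.0% of the 9757 dimmer genes. Of the 22 dimmer members, 6 (27.3%) were past it. The part of signal level in the small differences of the bright members was not tested.

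Pyruvate is reduced to lactate by lactate dehydrogenase or enters mitochondria. LDHB, the heart-type subunit, had 29089 and 29224 against 22789 and 23952, a difference of 0.32, with 0.27 on its second probe set. LDHA, the muscle-type subunit and a hypoxia target, had 22255 and 22348 against 24664 and 23842. Its difference was -0.12, and 0.01 with the arrays scaled to a common median. LDHB exceeded LDHA by 0.44, and by 0.38 to 0.50 over array pairs. Neither was past the 1.5-fold limit.

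Pyruvate dehydrogenase kinases shut the entry of pyruvate into the citric acid cycle. PDK1, the isoform induced by hypoxia, had 19547 and 19467 against 15276 and 15474 and was 1.27-fold higher. Its second probe set was 1.67-fold higher and past the 1.5-fold limit, and the last differed by 0.11. PDK3 had 1419.4 and 1395.6 against 1987.6 and 1803.6, a difference of -0.42 on its brightest probe set. Of its 4 other measured probe sets, 3 were higher, by 0.18 to 0.37, and 1 was at -0.01, so its direction depends on the probe set. The mean over all 5 was 0.06.

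HIF1A encodes the widely expressed alpha subunit and EPAS1 the related HIF-2 alpha subunit. HIF1A had 5241.5 and 5162.9 against 4373.3 and 4371.1, a difference of 0.25 with array-by-array values from 0.24 to 0.26. EPAS1 had 1299.0 and 1271.5 against 1400.1 and 1299.7, a difference of -0.07 that was above 0 with the arrays scaled to a common median. The arrays measure transcripts, whereas the alpha subunits are known to be controlled mainly through protein stability, so HIF activity was not measured.

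EGLN1, the main prolyl hydroxylase that marks HIF alpha for degradation, gave 1065.7 and 973.0 in the knock-down pool against 1831.0 and 1687.8 in the control pool, or 1019 ± 65.5 against 1759 ± 101 (SD, n = 2 arrays). It was 1.71-fold lower and the only member past the 1.5-fold limit as lower. Its probe sets disagreed: one differed by -0.08, and another, with signals of 313.6 against 193.1, was 1.58-fold higher and past the same limit as higher. Over the mean of all its probe sets the difference was -0.30 and EGLN1 was not past the limit. That mean takes in a probe set below the brightness limit, at -1.01 with signals of 11.75 against 42.75. EGLN3, a prolyl hydroxylase that is itself a hypoxia target, had signals from 24.8 to 36.4, below the brightness limit.

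The remaining 7 members are known targets of hypoxia-inducible factors, and 5 of them had higher signals (6 with the arrays scaled to a common median). Higher signals were also found for 5680 of all 10288 measured genes. BNIP3L, a mitophagy receptor of the mitochondrial outer membrane, had 2495.4 and 2412.8 against 1563.7 and 1454.6. It was 1.62-fold higher, and its second probe set was 2.09-fold higher and past the 2-fold limit. BNIP3, the related receptor, had 2097.2 and 2045.1 against 1712.0 and 1687.1 and was 1.22-fold higher, and 1.53-fold higher on its second probe set. The difference of BNIP3L exceeded that of BNIP3 by 0.41 on the brightest probe sets. VEGFA, the angiogenic growth factor, had 7879.8 and 7624.7 against 7313.6 and 6990.9, a difference of 0.12. Its 3 other probe sets differed by 0.39, 0.46 and 0.75, so the brightest gave the smallest difference of the 4.

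NDRG1, a stress-response gene of hypoxic cells, had 3541.9 and 3176.0 against 2967.7 and 3139.6, a difference of 0.14. P4HA1, a collagen prolyl hydroxylase subunit, had 1368.3 and 1200.2 against 1131.3 and 1140.9, a difference of 0.17 that was -0.16 when its dim second probe set was averaged in. ADM, the vasodilator peptide adrenomedullin, had 182.3 and 164.8 against 166.1 and 222.0. Its pools overlapped, and the difference of -0.14 was 0.06 without empty-vector replica 2. ANKRD37, an ankyrin repeat gene, had 260.9 and 269.7 against 271.9 and 282.7, a difference of -0.06 that was above 0 with the arrays scaled to a common median. None of these 4 was past the 1.5-fold limit, and the differences of the 7 targets ran from -0.14 to 0.70. The median over the 10 measured oxygen-sensing and target genes was 0.13, and -0.0002 with each gene taken as the mean of its probe sets. For P4HA1, ANKRD37, EPAS1 and EGLN1 that mean takes in probe sets below the brightness limit, all of them lower in the knock-down pool.

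**Figure D3:**
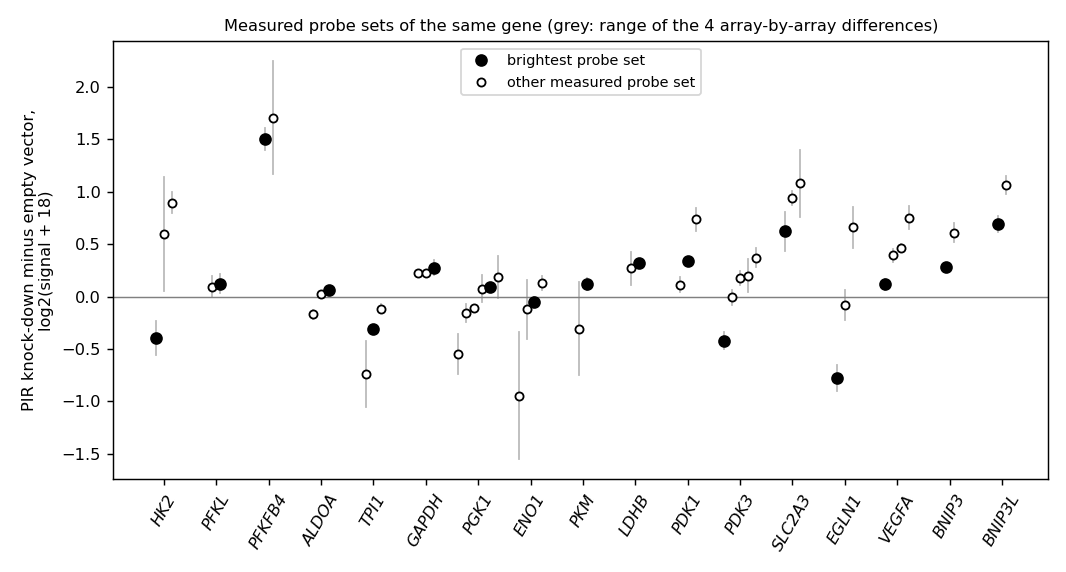
Difference between the pools for each measured probe set of the 17 genes with 2 or more (y axis, log2(signal + 18); x axis, genes), with filled points for the brightest probe set, open points for the others and grey lines for the range of the 4 array-by-array differences. The probe sets of 10 genes lie on 1 side of 0 and those of 7 genes, among them HK2, PDK3 and EGLN1, on both.

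Of the 17 genes with 2 or more measured probe sets, 10 had all of them on 1 side of 0. These were PFKL, PFKFB4, TPI1, GAPDH, LDHB, PDK1, SLC2A3, VEGFA, BNIP3 and BNIP3L. HK2, ALDOA, PGK1, ENO1, PKM, PDK3 and EGLN1 had probe sets on both. The brightest probe set had an identifier that marks shared probes in 5 of the 33 measured genes (_x_at) and one that marks several transcripts, often of 1 gene, in 13 (_s_at).

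Neighbouring pathways were described by lists. Of 8 measured further glycolytic and gluconeogenic genes, none was past the 1.5-fold limit, and the median was 0.07. The extremes were BSG, the chaperone of lactate transporters, at 0.31 and ENO3, the muscle enolase, at -0.32. In the list of pyruvate dehydrogenase and mitochondrial pyruvate entry, 1 of 11 measured genes was past the 1.5-fold limit as higher and 1 as lower, and the median was 0.16. These were the partner subunits of the mitochondrial pyruvate carrier. MPC2 had 5632 and 5331.9 against 3023.2 and 3129 and was 1.78-fold higher, with 1.80-fold on its second probe set. MPC1 had 3331.8 and 3580.8 against 6237.3 and 6061.5 and was 1.78-fold lower on its only measured probe set. Its mean over all probe sets, which takes in signals below the brightness limit, was -0.03. On the brightest probe sets the carrier subunits thus differed in opposite directions.

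In the pentose phosphate pathway 4 of 10 measured genes had higher and 6 lower signals, with a median of -0.11 (5, 5 and 0.01 with the arrays scaled to a common median). RPIA, which makes ribose 5-phosphate, was 1.73-fold lower, and RBKS, ribokinase, was 1.60-fold higher. The difference of RBKS, 0.68, was 0.51 without knock-down replica 2 and 0.57 with a 4 times larger pseudocount, both short of the 1.5-fold limit. In glycogen metabolism 1 of 12 measured genes was past the 1.5-fold limit, PPP1R3D, a glycogen-targeting phosphatase subunit, at 1.60-fold higher and 2.39-fold on its second probe set. The lowest was PHKG2, a phosphorylase kinase subunit, at -0.54, and the list median was 0.16.

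Among 13 measured HIF subunits and regulators, 10 had lower signals and the median was -0.14 (8 and -0.01 with the arrays scaled to a common median). Lower signals were found for 4608 of all 10288 measured genes. VHL, the substrate receptor for hydroxylated HIF alpha, had 211.2 and 212.8 against 338.4 and 337.3 and was 1.55-fold lower. Its difference of -0.63 was short of the 1.5-fold limit with the arrays scaled to a common median (-0.51) and with a 4 times larger pseudocount (-0.53). CITED2, which competes with HIF for its coactivators, had 8123.4 and 8903.6 against 5173.1 and 5376.6 and was 1.61-fold higher. Of 25 further measured HIF target genes, 17 had higher signals, against 5680 of all 10288 measured genes. Of the 25, 4 were past the 1.5-fold limit as higher and 1 as lower, against 8.51% and 4.95% of all measured genes. The median was 0.14. Past the 2-fold limit were TMEM45A, a transmembrane protein gene, at 3.13-fold and FOS, an AP-1 subunit that responds to many stimuli, at 2.14-fold. TMEM45A had 464.8 and 349.4 against 125.8 and 107.8 and was measured through its knock-down pool only.

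Among 9 measured glucose-responsive and MYC regulators, 2 were past the 2-fold limit, both higher, and the median was 0.27. TXNIP, an inhibitor of glucose uptake that responds to glucose, had 1950.2 and 1933.8 against 862.8 and 968.3 and was 2.10-fold higher, with other probe sets at 2.13-fold and 1.73-fold. Its difference of 1.07 was 0.98 with all its probe sets averaged and 0.99 without empty-vector replica 1, both below the 2-fold limit. PPARGC1A, a coactivator of mitochondrial biogenesis, had 814.8 and 876.4 against 276.6 and 311.4 and was 2.77-fold higher on its only measured probe set. Its difference of 1.47 was 0.85 with all its probe sets averaged, which takes in signals below the brightness limit. The medians of these lists are descriptions beside the 0.05 of all measured genes, and the lists were chosen with earlier results of these data known. Their counts stand beside 5680 higher and 4608 lower of all 10288 measured genes. Past the 1.5-fold limit were 8.51% of these as higher and 4.95% as lower, and past the 2-fold limit 2.44% and 1.10%.

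**Figure D4:**
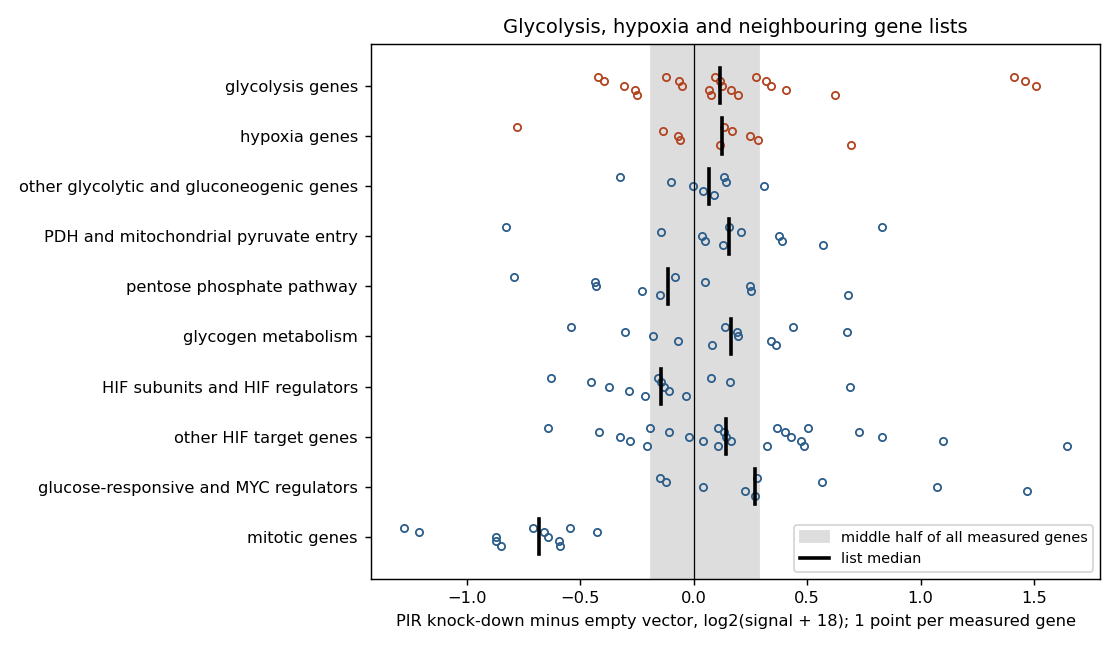
Difference between the pools for each measured gene of the glycolysis and hypoxia sets and of neighbouring lists (x axis, log2(signal + 18); y axis, lists), with black bars for list medians and grey shading from the 25th to the 75th percentile of all measured genes. The medians of the glycolysis and hypoxia genes lie at 0.12 and 0.13, inside the shading, and that of the mitotic genes lies at -0.68, outside it.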

How the data were processed

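Total RNA was measured on 4 arrays. The submitters' processing notes name GCOS as the software and no version; settings are not stated there. Values were deposited as signal intensities on a linear scale, and the 2% trimmed mean was 499.93 on each array, so the authors' values are scaled to a common level. Of 54675 probe sets, 62 controls were left out, except those of GAPDH and ACTB; 41091 of the others had 1 gene symbol in the platform annotation, 1801 several and 11721 none, and 41037 matched the RefSeq gene table. Several-symbol probe sets were not used.

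The arrays of a pool were averaged and no test was run, since each condition is 1 sample. With 1 pool per condition, the spread between cultures is unknown, and the 2 arrays of a pool show hybridisation error only. The pseudocount of 18 is the 25th percentile of signal, averaged over arrays. Measured genes had both arrays of a pool at or above the brightness limit. The code that applies the 2-fold and 1.5-fold rules was checked on simulated arrays, which says nothing of the spread between cultures. All 38 members are named. From the other gene lists, up to 4 genes past the 2-fold limit or else the extreme in each direction are named. Of the cell type markers only some myelomonocytic ones are named. The members, lists and rules were chosen with earlier results of these data known. Alternatives changed the pseudocount, brightness limit, scaling, probe sets, margin and arrays. Python 3.11.15, pandas 2.3.3, numpy 2.4.6 and matplotlib 3.10.9 were used.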

Additional observations from a re-analysis of the deposited data

How the results depend on the processing

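The 2-fold counts stayed within 1.5 times the reported ones in all 13 alternatives, with 2 or 3 members higher and none lower. PFKFB4, ALDOC and BNIP3L were past the 1.5-fold limit as higher in all 13. The count of members past that limit as higher ran from 3 to 5 with single arrays left out, the lowest without empty-vector replica 1, where HK3 and SLC2A3 dropped out. Of all measured genes, 9.29% to 10.4% were past it as higher with single arrays left out. The count as lower was 0 with all probe sets averaged and 3 (TPI1, ENO1 and EGLN1) with probe sets ending in _x_at or _s_at left out where a gene had others. In these settings 4.16% and 6.01% of all measured genes were past it as lower. With the arrays scaled to a common median, members with arrays that did not overlap as lower were 5 instead of 11. The share of all measured genes with such arrays was not counted under this scaling, so the 5 cannot be set against it. The medians under this scaling were 0.24 for all members, 0.24 for glycolysis and 0.25 for hypoxia genes, while the median of all measured genes was 0.17. The glycolysis median was 0.0474 after quantile normalization, where that of all measured genes was 0.0228. With all probe sets averaged, the median of all members was 0.0787 and that of all measured genes was 0.0072. The median of the hypoxia genes reversed in sign to -0.0002, a value near no difference. These averages take in probe sets below the brightness limit. Over all measured genes, the 2-fold counts (251 higher, 113 lower) became 164 and 77 with a 4 times larger pseudocount, 158 and 71 with all probe sets averaged, 142 and 84 with the 75th percentile as brightness limit, and 448 and 414 with no limit; 177 were lower without empty-vector replica 1. The 1.5-fold counts (876 and 509) became 1348 and 303 with median scaling, 1380 and 1274 with no brightness limit and 552 and 362 with the 75th percentile. HK3 was not past the 1.5-fold limit with the 75th percentile, and ENO2 passed it with no limit. Of the 33 members, 19 kept 1 sign under all 12 alternatives run for single genes and 14 did not. No paired analysis was possible because the replica numbers name repeat hybridisations of 1 RNA pool per condition, so no test was run.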
